A study of Mus musculus with 6 samples.

Results

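The mitochondrial genome of the mouse encodes 13 proteins of the respiratory chain, and the transcripts of 10 of these genes are described here, out of 30403 genes analysed. They were taken by symbol through the Ensembl gene identifier, and their values were not used to pick them, although earlier results of these data were known. The 10 are mt-Co1, mt-Co2 and mt-Co3 (complex IV, cytochrome c oxidase), mt-Cytb (complex III), mt-Atp6 (ATP synthase, complex V), and mt-Nd1, mt-Nd2, mt-Nd4, mt-Nd5 and mt-Nd6 (complex I, NADH dehydrogenase). All 10 were found, and each had at least 5 FPKM (reads scaled by gene length and by library size) in all 4 libraries. RNA came from bone marrow cells of C57BL/6 mice sorted for long-term haematopoietic stem cells, LT-HSCs, by the gate Lineage–Sca1+cKit+CD34–Flk2–. The groups were Twist1 cKO 12 days after irradiation, wild type 12 days after irradiation, Twist1 cKO at steady state and wild type at steady state. TWIST1 is a basic helix-loop-helix transcription factor, and cKO stands for a conditional knockout. For the Cre driver, the alleles, the radiation dose, and the age, sex and number of mice, the sources used here give nothing. Each group held 1 RNA library, so no difference has a replicate check, no test was run, and all intervals given are 95% intervals for counting error only. The series title names a mitochondrial metabolism gene program, and the question followed here is how the transcripts of the mitochondrial genome itself stood in Twist1 cKO against wild-type cells under each condition.

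The respiratory chain passes electrons from NADH through complexes I and III to oxygen at complex IV, and the proton gradient built on the way drives ATP synthase. Its complexes are mosaics: the mitochondrial genome supplies core, membrane-bound subunits, and the nucleus supplies all others. Both strands of the mitochondrial genome are transcribed as long precursors that are cut into separate RNAs, so the levels of single mitochondrial mRNAs depend on how each is processed and how long it lasts as well as on transcription. Quiescent LT-HSCs are known for low mitochondrial respiration and a reliance on glycolysis.

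Library sizes implied by the authors' values lay between 22146433 and 26031985 reads, and between 73.1% and 88.9% of genes were above 0 FPKM. Twist1 was near the detection limit in all libraries, with 0 and 2 reads in the cKO libraries (irradiated and steady state) and 5 and 6 in the wild-type libraries, so the deletion could not be checked at this depth. Of the genes of the positive gate markers, Ly6a (Sca1) had 256 and 89.1 FPKM in irradiated cKO and wild-type cells, against 362 and 534 FPKM at steady state, and Kit had 4.98 and 8.52 FPKM against 27.6 and 20.1 FPKM. Of the negative ones, Cd34 had 0.322 and 0.155 FPKM in irradiated cKO and wild-type cells, against 29.2 and 18.4 FPKM at steady state. Flt3 (Flk2) had 1.32 and 0.519 FPKM against 9.32 and 6.26 FPKM. Procr, the gene of the endothelial protein C receptor, had 1.22 FPKM in irradiated cKO and 0.333 FPKM in irradiated wild-type cells, against 66.1 and 51.3 FPKM in the cKO and wild-type cells at steady state. Of 15 listed LT-HSC markers, 2 and 3 reached 5 FPKM in the irradiated cKO and wild-type libraries, against 11 and 10 in the steady-state ones. Markers of other marrow cells were found in all libraries, with only the B cell gene Pax5 at 0, in irradiated wild-type cells. The 11 erythroid markers in the files summed to 16747 and 13712 FPKM in irradiated cKO and wild-type cells, against 2671 and 4069 FPKM in steady-state cKO and wild-type cells. Over 14 macrophage, monocyte and dendritic markers the sums were 2666, 1372, 1347 and 2547 FPKM in the same order of libraries, and over 11 B and plasma cell markers 4601, 1596, 3232 and 5748 FPKM. Most of the latter came from Jchain, with 4264, 1423, 2794 and 5063 FPKM. Of the 7 B and plasma cell markers that reached 5 FPKM in either cKO library, 5 were lower after irradiation and 2 higher, although the sum was higher. Between the irradiated libraries 7 of the 11 erythroid markers were higher in cKO and 4 lower. The Y-linked gene Ddx3y had 0.0164 and 0.0521 FPKM in the irradiated cKO and wild-type libraries, against 12.4 and 10.2 FPKM at steady state, so that sex and irradiation cannot be told apart here.

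The 10 transcripts spanned a wide range of levels, and their order was similar in all 4 libraries apart from mt-Co1. mt-Cytb, the cytochrome b subunit of complex III, was the most abundant member throughout, with 701 FPKM in irradiated cKO, 699 FPKM in irradiated wild-type, 1080.5 FPKM in steady-state cKO and 875 FPKM in steady-state wild-type cells. mt-Nd1, a complex I subunit in the quinone-binding region, varied least, with 593, 677, 647 and 591 FPKM in irradiated cKO, irradiated wild type, steady-state cKO and steady-state wild type, a highest-to-lowest ratio of 1.15. At the low end stood mt-Co2, which carries the copper centre that takes electrons from cytochrome c, with 9.66 FPKM in irradiated cKO, 10.3 FPKM in irradiated wild-type, 24.2 FPKM in steady-state cKO and 21.3 FPKM in steady-state wild-type cells. The irradiated libraries were both below the steady-state libraries for mt-Co2, and for mt-Cytb, while for mt-Nd1 the irradiated and steady-state values overlapped.

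mt-Co1 encodes the catalytic subunit of cytochrome c oxidase, which holds the site of oxygen reduction, and it was the member that varied most. It had 393 FPKM in irradiated cKO, 337 FPKM in irradiated wild-type, 733 FPKM in steady-state cKO and 146 FPKM in steady-state wild-type cells, resting on 14256, 11531, 28577 and 5885 reads. The highest value, in steady-state cKO, was 5.01 times the lowest, in steady-state wild type, where the same ratio of highest to lowest lay between 1.15 and 2.51 for the other 9 members. In the order of levels mt-Co1 stood at rank 3 in both irradiated libraries, at rank 2 in steady-state cKO and at rank 4 in steady-state wild-type cells.

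The remaining complex I members kept the same order among themselves, with mt-Nd2 below mt-Co1 in 3 libraries and above it in steady-state wild type. mt-Nd2 and mt-Nd4, both subunits of the proton-pumping membrane arm, had 123 and 89.0 FPKM in irradiated cKO, 142 and 84.5 FPKM in irradiated wild-type, 158 and 129 FPKM in steady-state cKO, and 158 and 135 FPKM in steady-state wild-type cells. mt-Nd5, at the far end of that arm, had 55.6, 64.9, 94.7 and 99.4 FPKM in the same order of libraries. mt-Nd6, the member encoded on the opposite strand to the other 9, had 41.5, 43.9, 62.4 and 71.9 FPKM. For mt-Nd2, mt-Nd4, mt-Nd5 and mt-Nd6 both irradiated values lay below both steady-state values.

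mt-Co3, a core subunit of complex IV, had 37.8 FPKM in irradiated cKO, 46.9 FPKM in irradiated wild-type, 60.8 FPKM in steady-state cKO and 58.6 FPKM in steady-state wild-type cells. mt-Atp6, the subunit of ATP synthase next to its rotating ring, had 23.0, 30.04, 57.6 and 52.2 FPKM in these libraries. Both were lower in the irradiated pair of libraries, and the cKO value was the lower of the irradiated pair and the higher of the steady-state pair. Neighbours in the order whose ratio was within counting error were mt-Nd6 and mt-Co3 in irradiated cKO (mt-Nd6 over mt-Co3 1.10, 0.977 to 1.23), in irradiated wild type (mt-Co3 over mt-Nd6 1.07, 0.955 to 1.20) and in steady-state cKO (mt-Nd6 over mt-Co3 1.03, 0.939 to 1.12), and mt-Co3 and mt-Atp6 in steady-state cKO (1.06, 0.970 to 1.15). In steady-state wild-type cells every neighbouring pair differed by more than counting error, which leaves out the spread between animals.

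**Figure D1:**
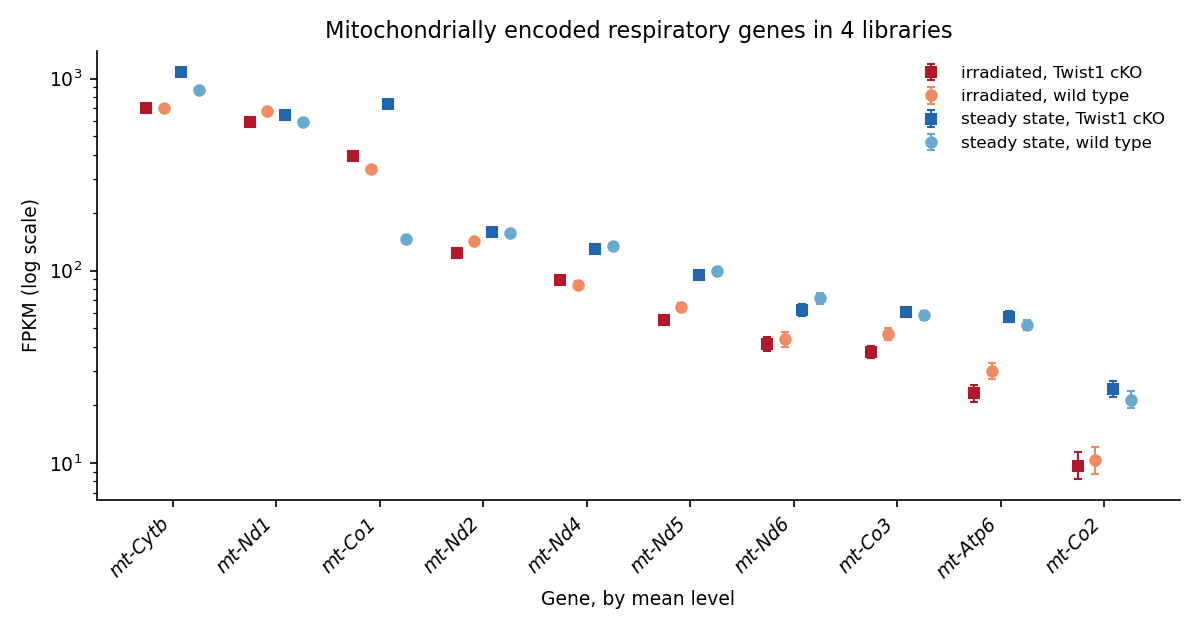
FPKM (log scale) of the 10 genes, ordered by mean level, in the 4 libraries, with bars for the 95% counting interval. mt-Co1 is highest, at 733 FPKM, in steady-state cKO and lowest, at 146 FPKM, in steady-state wild type, while mt-Nd1 stays between 591 and 677 FPKM.

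By position on the mitochondrial chromosome (GRCm38, MT) mt-Co1 lies at 5328 to 6872, between mt-Nd2 at 3914 to 4951 and mt-Co2 at 7013 to 7696. Neither neighbour had its pattern: the ratio of the highest to the lowest library was 1.28 for mt-Nd2 and 2.50 for mt-Co2, and at steady state the counting interval of their cKO over wild-type ratio included 1. mt-Nd1 lies at 2751 to 3707, mt-Atp6 at 7927 to 8607, mt-Co3 at 8607 to 9390, mt-Nd4 at 10167 to 11544 and mt-Cytb at 14145 to 15288. mt-Nd5 at 11742 to 13565 and mt-Nd6 at 13552 to 14070 overlap on opposite strands. The sources used here do not say whether reads were counted by strand, so reads from the overlap of these genes cannot be told apart, nor can antisense reads over any member.

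Within a library the ratio of mt-Co1 to the other members does not depend on how libraries are scaled. mt-Co1 stood at 7.08 times the median of the other 9 members in irradiated cKO, 5.19 times in irradiated wild type, 7.74 times in steady-state cKO and 1.47 times in steady-state wild type. The steady-state wild-type library therefore had the low ratio, and the other 3 libraries, both irradiated ones included, had ratios that lay closer to each other than to it. The same library was lowest for mt-Co1 over each of the other 9 genes taken singly. Over mt-Co3, a core subunit of the same complex, mt-Co1 had ratios of 10.4 (9.64 to 11.2) in irradiated cKO, 7.18 (6.69 to 7.72) in irradiated wild type, 12.1 (11.4 to 12.8) in steady-state cKO and 2.50 (2.35 to 2.66) in steady-state wild type. Over mt-Co2 the ratios were 40.7, 32.7, 30.3 and 6.87 in the same order. As a share of the reads of the 10 members, mt-Co1 took 25.3% (24.9 to 25.7) in irradiated cKO, 21.3% (21.0 to 21.7) in irradiated wild type, 31.1% (30.8 to 31.4) in steady-state cKO and 9.20% (8.98 to 9.43) in steady-state wild type (Clopper-Pearson intervals).

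**Figure D2:**
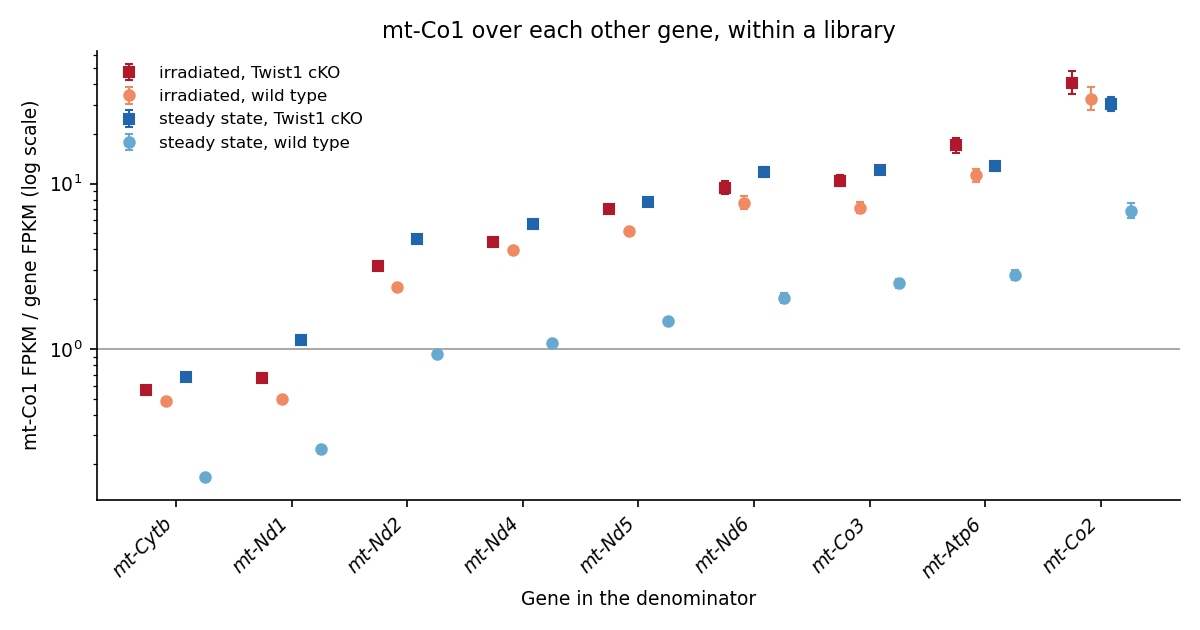
FPKM of mt-Co1 divided by the FPKM of each other member in the same library (log scale), with 95% counting intervals. Over every gene the lowest of the 4 points is steady-state wild type, for instance 2.50 over mt-Co3, where the other libraries have 10.4, 7.18 and 12.1.

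The difference in mt-Co1 was large enough to move the total of the mitochondrial mRNAs. The 10 members took 56341 reads in irradiated cKO, 54010 in irradiated wild type, 91810 in steady-state cKO and 63933 in steady-state wild type, which were 0.240%, 0.244%, 0.364% and 0.246% of the library sizes. Without mt-Co1 the other 9 took 0.179%, 0.192%, 0.251% and 0.223%. The total was highest in steady-state cKO, both with mt-Co1 and without it.

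At steady state, mt-Co1 was 5.01-fold higher in Twist1 cKO than in wild-type cells (4.87 to 5.15), a log2 difference of 2.32 on the log2(FPKM + 1) scale. The other members lay near equal levels, with a median log2 difference of 0.05 over the 9 and a range between −0.20 (mt-Nd6) and 0.30 (mt-Cytb). mt-Co1 thus stood 2.26 log2 units above the median of the other members. In a bulk sample, fewer cells of a type and less RNA per cell cannot be told apart, here or in any comparison that follows.

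Among the others, mt-Cytb was 1.23-fold higher in steady-state cKO than in wild-type cells (1.21 to 1.26), and mt-Nd1 had a ratio of 1.10 (1.07 to 1.12). mt-Atp6 had a ratio of 1.10 (1.01 to 1.21), and mt-Nd6 the lowest, 0.869 (0.791 to 0.955). For mt-Nd2, mt-Co2 and mt-Co3 the counting interval of the ratio included 1. mt-Nd4 and mt-Nd5 had ratios of 0.957 (0.919 to 0.997) and 0.953 (0.914 to 0.993).

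A gene was counted as called when it was at least 2-fold apart among genes with 5 FPKM or more in the higher library. In this comparison 46 of 7157 genes, 0.643%, were at least 2-fold higher in cKO and 193, 2.7%, at least 2-fold lower. Of the 10 members, mt-Co1 was called higher and none was called lower. Over all genes kept, 18 had a larger positive difference than mt-Co1, and the median difference was 0.01. The sign of mt-Nd4, mt-Nd5 and mt-Nd6 turned under other scalings of the libraries. Dividing by the summed 13 mitochondrial protein genes put all 9 others below 0, with mt-Co1 at 1.86. That sum includes mt-Co1 itself, so its higher level in cKO lowers all these values by construction. Macrophage, monocyte and dendritic markers summed to 1347 FPKM in cKO and 2547 FPKM in wild type in the same libraries, and erythroid markers to 2671 and 4069 FPKM. Neutrophil markers summed to 3809 FPKM in cKO and 3032 FPKM in wild type, with 8 of the 11 kept higher in cKO and 3 lower. The part of these cell types in the mt-Co1 difference was not tested.

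After irradiation the genotypes lay close together for all members, mt-Co1 included. mt-Co1 was 1.17-fold higher in irradiated cKO than in irradiated wild-type cells (1.14 to 1.20), a log2 difference of 0.22, and the median of the other 9 members was −0.19. mt-Cytb was level at a ratio of 1.002 (0.981 to 1.02), and mt-Atp6 had the lowest ratio, 0.765 (0.665 to 0.880). mt-Co3 stood at 0.805 (0.727 to 0.892), and mt-Nd1, mt-Nd2 and mt-Nd5 between 0.856 and 0.876. The counting intervals of mt-Co2, mt-Nd4, mt-Nd6 and mt-Cytb included 1.

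No member was 2-fold apart between irradiated cKO and irradiated wild type, where 4.47% of 6348 genes were called higher and 1.04% lower. The median over all genes kept was −0.45, and all 10 members lay above it. Relative to zero the sign depended on scaling for 7 of the 10 members, namely all but mt-Co1, mt-Cytb and mt-Nd4, since upper-quartile scaling moved the median of all genes by 0.52 and put all 9 others above 0. Summed neutrophil markers stood at 1461 FPKM in irradiated cKO and 477 FPKM in irradiated wild-type cells, and macrophage, monocyte and dendritic markers at 2666 and 1372 FPKM. Their part in these differences was not tested.

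In wild-type cells, mt-Co1 was 2.30-fold higher 12 days after irradiation than at steady state (2.23 to 2.38), a log2 difference of 1.20, while the median of the other 9 members was −0.61. The lowest of the others was mt-Co2, with a ratio of 0.484 (0.399 to 0.585) and a log2 difference of −0.98. mt-Atp6 had a ratio of 0.576 (0.513 to 0.645), and mt-Nd6, mt-Nd4 and mt-Nd5 had ratios of 0.611, 0.628 and 0.653. mt-Cytb and mt-Co3 were closer to steady state, at 0.799 (0.784 to 0.815) and 0.801 (0.732 to 0.876). mt-Nd1 was the only one of the 9 with a positive difference, 0.20, at a ratio of 1.15 (1.12 to 1.17).

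In the wild-type comparison 18.9% of 7418 genes were at least 2-fold higher after irradiation and 18.9% at least 2-fold lower. mt-Co1 was the 1 member of 10 called higher, and none was called lower, so that calls were no more frequent among the members than among all genes. The median over all genes kept was 0.21, and 9 members lay below it. The differences of mt-Co2, mt-Atp6, mt-Nd4, mt-Nd5 and mt-Nd6 stayed below 0 under all scalings tried between libraries, that of mt-Co1 stayed between 0.85 and 1.79, and those of mt-Co3, mt-Cytb, mt-Nd1 and mt-Nd2 turned sign. Erythroid markers (13712 FPKM in irradiated and 4069 FPKM in steady-state wild-type cells) and LT-HSC markers (120 and 852 FPKM) differed between the same libraries. Their part in these values was not tested, and the irradiated and steady-state libraries also differ in sex-linked transcripts.

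In Twist1 cKO cells, mt-Co1 lay on the other side: it was at 0.537 times its steady-state level after irradiation (0.526 to 0.548), a log2 difference of −0.90. The other 9 members were also below their steady-state levels on the values as deposited, with a median of −0.62, so mt-Co1 stood 0.27 log2 units below their median and within their range of −1.29 to −0.12. mt-Atp6 and mt-Co2 were at 0.399 (0.353 to 0.450) and 0.400 (0.331 to 0.482) times their steady-state cKO levels. These were the members at least 2-fold lower, 2 of 10, where 22.6% of 7393 genes were called lower and 10.3% higher.

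mt-Nd5 was at 0.587 (0.558 to 0.617), mt-Co3 at 0.622 (0.566 to 0.683) and mt-Cytb at 0.648 (0.637 to 0.660) of their steady-state cKO values. mt-Nd1 was nearest to its steady-state level, at 0.917 (0.896 to 0.938). The median over all genes kept was −0.20. Under upper-quartile scaling, which moved that median by 1.05, all members but mt-Co2 and mt-Atp6 turned to positive differences, mt-Co1 to 0.12. Erythroid markers summed to 16747 FPKM in irradiated and 2671 FPKM in steady-state cKO cells, and their part in these values was not tested.

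**Figure D3:**
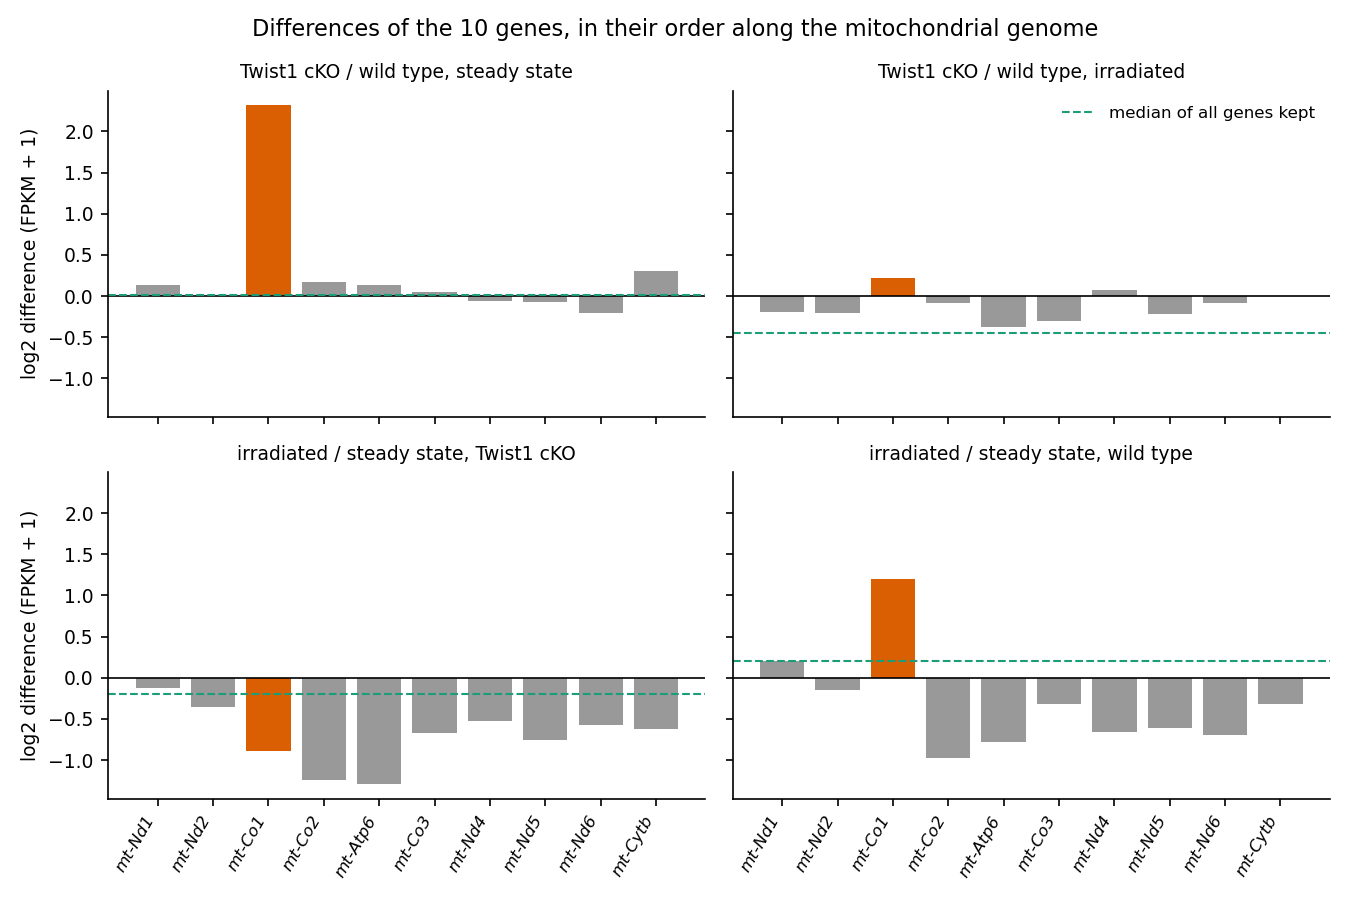
Differences in log2(FPKM + 1) of the 10 genes, in genome order, for the genotype comparisons (upper panels) and the irradiation comparisons (lower panels), with mt-Co1 in orange and the median over all genes kept as a dashed line. mt-Co1 stands at 2.32 in cKO against wild type at steady state and at 1.20 in irradiated against steady-state wild type, and within 0.41 log2 units of the median of the others in the remaining panels; signs of values near 0, and in irradiated against steady-state cKO those of 8 genes, turn under other scalings.

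The irradiation difference in cKO minus that in wild type was −2.09 log2 units for mt-Co1, made up of −0.90 in cKO and 1.20 in wild type. For the other 9 members this value lay between −0.51 (mt-Atp6) and 0.14 (mt-Nd4), with a median of −0.26, against a median of −0.40 over all genes kept. Of 7772 genes, 1.7% were at least 2-fold lower and 6.28% at least 2-fold higher on this measure, and mt-Co1 was the only member called, with 33 genes lower than it. mt-Co1 stayed between −2.25 and −1.68 under the scalings tried between libraries. It was −1.59 on dividing by the 13 mitochondrial protein genes, a sum that includes mt-Co1 itself. mt-Atp6 stayed below 0, while the other 8 turned sign. All comparisons share libraries: the steady-state wild-type library, in which mt-Co1 was low relative to the other members, enters the steady-state genotype comparison, the wild-type irradiation comparison and this difference.

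The 3 mitochondrial protein genes outside the 10 were low. mt-Atp8, whose reading frame overlaps that of mt-Atp6, had 3.97 FPKM in irradiated cKO, 4.43 FPKM in irradiated wild-type, 4.66 FPKM in steady-state cKO and 8.29 FPKM in steady-state wild-type cells. mt-Nd3 had between 1.84 and 4.08 FPKM, and mt-Nd4l rested on 10 reads or fewer in each library. At steady state the cKO over wild-type ratio was 0.563 (0.327 to 0.946) for mt-Atp8 and 0.781 (0.460 to 1.31) for mt-Nd3, both with an upper bound below the 5.01 of mt-Co1.

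The mitochondrial ribosomal RNAs, which form the core of the mitochondrial ribosome, were read in the same libraries. mt-Rnr2, the large-subunit rRNA, had 391 FPKM in irradiated cKO, 419 FPKM in irradiated wild-type, 962 FPKM in steady-state cKO and 1076 FPKM in steady-state wild-type cells. mt-Rnr1, the small-subunit rRNA, had 28.4, 31.9, 75.8 and 112 FPKM in that order. Both were lower after irradiation in each genotype under every scaling between libraries, with mt-Rnr2 at 0.406 (0.398 to 0.414) times steady state in cKO and 0.389 (0.382 to 0.397) times in wild type. On the values as deposited, at steady state, mt-Rnr2 had a cKO over wild-type ratio of 0.894 (0.882 to 0.906) and mt-Rnr1 a ratio of 0.677 (0.638 to 0.719), so neither had the higher cKO level of mt-Co1. mt-Tp, the 1 mitochondrial tRNA gene among the symbols in the files, had 41.4 and 31.7 FPKM in irradiated cKO and wild type, against 6.50 and 6.31 FPKM in the cKO and wild type at steady state, on 65, 47, 11 and 11 reads.

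Copies of mitochondrial DNA in the nuclear genome can share reads with the mitochondrial genes. Chromosome 1 of the mouse reference holds a near-identical copy of a stretch of the mitochondrial genome, and 8 Gm genes of the files were listed as candidate copies. Of these, Gm10925 (GRCm38, chromosome 1, 24613971 to 24614651) carries mt-Atp6 among its RefSeq synonyms. Gm28661, Gm28437, Gm28438 and Gm10222 were set beside mitochondrial genes by length alone, while Gm29216, Gm28439 and Gm10221 matched none in length, and no sequences were compared. Gm10925 had 33.0 FPKM in irradiated cKO, 47.9 FPKM in irradiated wild-type, 89.9 FPKM in steady-state cKO and 86.1 FPKM in steady-state wild-type cells, above mt-Atp6 in each, and took between 58.8% and 62.2% of the reads of both genes. Gm28661, of nearly the length of mt-Co2, had 12.8, 10.6, 23.3 and 23.2 FPKM in this order, and Gm28437, of nearly the length of mt-Co3, had 33.7, 38.5, 51.4 and 52.7 FPKM. Each was lower in both irradiated libraries, as were the mitochondrial genes they stand beside. Gm28438 and Gm10222, of nearly the lengths of mt-Nd3 and mt-Nd4l, and Gm28439 stayed below 5 FPKM in all libraries. Gm10221 had 12.97 FPKM in irradiated cKO, 24.1 FPKM in irradiated wild-type, 13.2 FPKM in steady-state cKO and 17.5 FPKM in steady-state wild-type cells.

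The levels of mt-Atp6, mt-Co2 and mt-Co3 are therefore uncertain, since the sources used here do not say whether or how reads were split between them and these genes. The 3 members with a Gm gene of like length had lower levels than the 7 without, with medians of 23.0 against 123 FPKM in irradiated cKO, 30.04 against 142 FPKM in irradiated wild type, 57.6 against 158 FPKM in steady-state cKO and 52.2 against 146 FPKM in steady-state wild type. In no library did the highest of the 3 exceed the lowest of the 7 except in irradiated wild type, where mt-Co3 had 46.9 FPKM and mt-Nd6 43.9 FPKM. This grouping went by length, and mt-Co1 was placed among the 7, although Gm29216, a listed candidate copy, had values that ran with it. The level of mt-Co1 is therefore not free of this uncertainty. Whether shared reads lowered any of these levels was not tested.

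Gm29216 is set beside mt-Co1 because its values ran with those of mt-Co1, a choice made after the values were seen. It had 22.9 FPKM in irradiated cKO, 19.5 FPKM in irradiated wild-type, 76.0 FPKM in steady-state cKO and 11.9 FPKM in steady-state wild-type cells, on 264, 213, 944 and 152 reads. At steady state its cKO over wild-type ratio was 6.41 (5.39 to 7.65), after irradiation 1.17 (0.973 to 1.41). In wild type its irradiated over steady-state ratio was 1.65 (1.33 to 2.04), and in cKO 0.301 (0.262 to 0.345). Its reads came to between 1.85% and 3.30% of those of mt-Co1, and with them added the log2 difference of mt-Co1 at steady state, cKO against wild type, was 2.33 in place of 2.32. This sum holds only reads already counted for either gene and could move the value little. It cannot show reads that were left out of both genes or counted elsewhere.

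**Figure D4:**
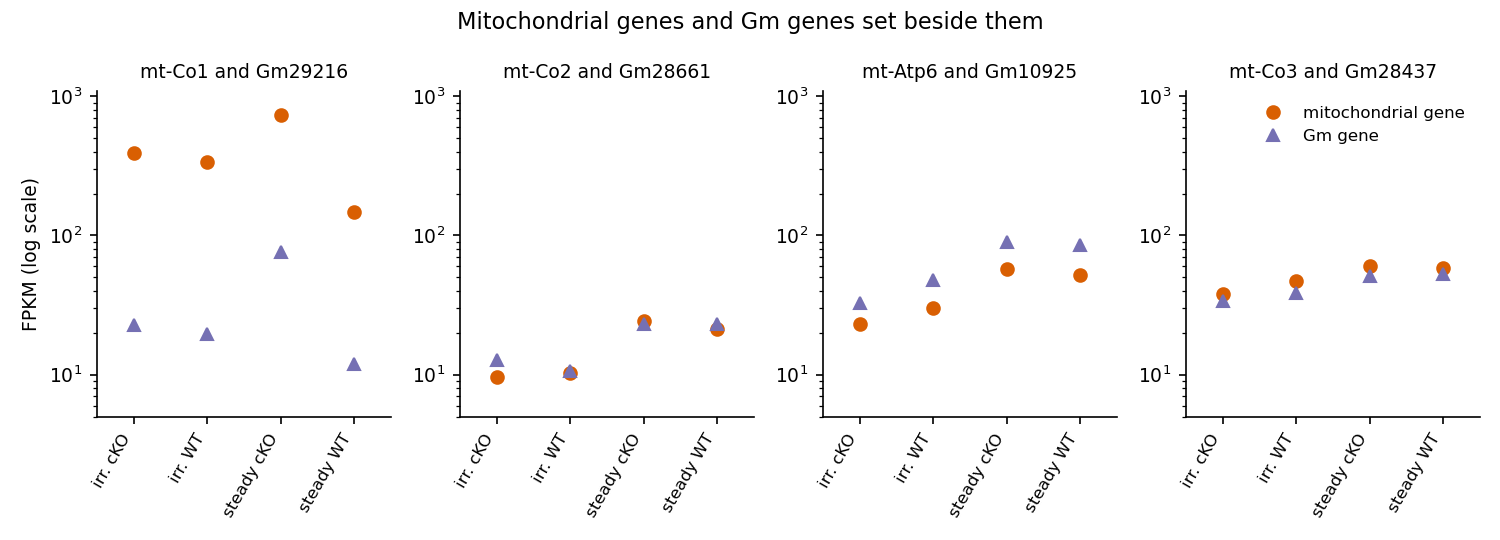
FPKM (log scale) of 4 mitochondrial genes (circles) and of the Gm genes set beside them (triangles; Gm29216 by its values, the others by length or synonym) in the 4 libraries. Gm29216 and mt-Co1 are both highest in steady-state cKO (76.0 and 733 FPKM) and lowest in steady-state wild type (11.9 and 146 FPKM), while the other pairs are lower in both irradiated libraries.

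The nuclear-encoded subunits of the same complexes stood differently from the mitochondrial ones. In wild-type cells, irradiated against steady state, the median log2 difference of nuclear subunits was 0.999 for complex I (35 genes kept, 17 at least 2-fold higher), 1.45 for complex III (7 of 9), 1.01 for complex IV (6 of 11) and 1.05 for complex V (12 of 17), beside 0.21 over all genes kept and a background of 18.9% called higher. None was called lower. Cyc1, the cytochrome c1 subunit of complex III, had 929 FPKM in irradiated wild-type cells and 254 FPKM in steady-state wild-type cells, a log2 difference of 1.87. Atp5g1, which encodes the rotating c subunit of ATP synthase, had 373 FPKM in irradiated and 98.9 FPKM in steady-state wild-type cells (log2 difference 1.90), and Cox6a1 of complex IV had 1825 and 743 FPKM (log2 difference 1.30). Every nuclear subunit kept of complexes I, III and V had a higher difference than every mitochondrial one, and for complex IV all 11 lay above mt-Co2 and mt-Co3, while 3 lay above mt-Co1.

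The same held in cKO cells, irradiated against steady state, at smaller values. Nuclear medians were 0.65 for complex I, 0.88 for complex III, 0.71 for complex IV and 0.68 for complex V, with 1 of 35, 4 of 9, 1 of 11 and 2 of 17 genes at least 2-fold higher, where the background was 10.3%. The mitochondrial medians were −0.53, −0.62, −0.90 and −1.29. All 35, 9, 11 and 17 nuclear subunits kept lay above every mitochondrial subunit of their complex. All these nuclear medians stayed above 0 under the scalings tried. The mitochondrial medians of complexes I, III and IV, which are the values of mt-Nd4, mt-Cytb and mt-Co1, did not keep their sign. These genes reached 0.47, 0.39 and 0.12 under other scalings, while mt-Atp6 of complex V stayed below 0.

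Between genotypes the order was the opposite. In steady-state cKO against wild-type cells the nuclear medians were −0.33, −0.28, −0.40 and −0.34 for complexes I, III, IV and V, against mitochondrial medians of −0.06, 0.30, 0.17 and 0.14. All nuclear subunits kept of complexes III, IV and V and 27 of 35 of complex I lay below every mitochondrial subunit of their complex, although none was called at 2-fold and the medians of complexes I and III turned sign under other scalings. In irradiated cKO against irradiated wild type the nuclear medians were −0.66, −0.71, −0.67 and −0.67, and all 35, 9, 11 and 17 lay below every mitochondrial subunit of their complex. The median over all genes kept was −0.45 there and lay below all 10 members too. Ndufc1 of complex I, for example, had 115 FPKM in irradiated cKO and 204 FPKM in irradiated wild type (log2 difference −0.82), and Atp5k of complex V had 202 and 355 FPKM (log2 difference −0.81).

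Taken as a ratio within each library, which no scaling between libraries can change, mitochondrial over nuclear subunit levels had the same order for all 4 complexes. For complex I the median mitochondrial level minus the median nuclear level was −0.87 log2 units in irradiated cKO, −1.61 in irradiated wild type, 0.29 in steady-state cKO and −0.08 in steady-state wild type. For complex III, where mt-Cytb is the 1 mitochondrial subunit, it was 1.44, 0.73, 2.82 and 2.17 in that order. For complex IV it was −3.28, −3.62, −1.84 and −2.34, and for complex V, from mt-Atp6, −3.34, −3.61, −1.10 and −1.64. The complex IV median is the mt-Co3 value in every library, so how high mt-Co1 stood does not enter it. Within each condition the cKO value was higher than the wild-type value, and within each genotype the irradiated value was lower than the steady-state value. For complexes IV and V this measure carries the uncertainty of reads that may be shared with Gm genes. Whether that also touches the order of the libraries was not tested.

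**Figure D5:**
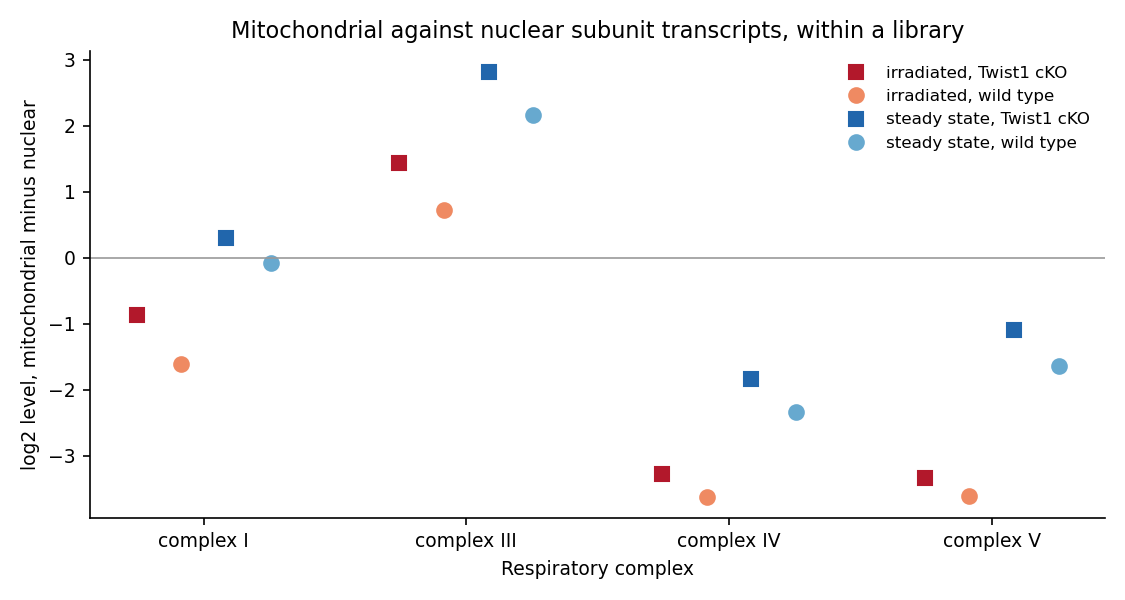
Median log2(FPKM + 1) of mitochondrially encoded subunits minus that of nuclear-encoded subunits of the same complex, within each library. In all 4 complexes steady-state cKO is highest and irradiated wild type lowest, for instance 2.82 and 0.73 for complex III. The mitochondrial median of complex IV is the mt-Co3 value in every library, so the level of mt-Co1 is not shown.

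Nuclear genes that act on mitochondrial RNA or on complex IV were looked at as 3 lists. These were for mitochondrial transcription and genome maintenance, for mitochondrial RNA processing and stability, and for complex IV assembly. The last list includes the synthesis of COX1, the protein of mt-Co1, but not all its genes act on COX1 itself. In steady-state cKO against wild type no gene of these lists was 2-fold apart, with medians of 0.00 (11 genes kept), 0.05 (17) and −0.22 (13). Tfam, which packages mitochondrial DNA and starts its transcription, had 17.5 FPKM in both steady-state libraries. Polrmt, the mitochondrial RNA polymerase, had 4.47 FPKM in steady-state cKO and 3.48 FPKM in steady-state wild type, and Lrpprc, which stabilises mitochondrial mRNAs, 3.95 and 3.52 FPKM. Taco1, the translational activator of COX1, had 3.90 FPKM in steady-state cKO and 4.14 FPKM in steady-state wild-type cells. The largest log2 differences of the lists there were those of Rexo2, a mitochondrial oligoribonuclease, at −0.62, and of Mterf2, at 0.47. Ppargc1a, the coactivator PGC-1α that drives mitochondrial biogenesis, was low throughout, with 0.252 and 0.151 FPKM in irradiated cKO and wild type and 0.313 and 0.280 FPKM in the cKO and wild type at steady state.

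After irradiation, in cKO against wild type, the medians of the 3 lists were −0.55, −0.53 and −0.65, near the −0.45 of all genes kept, and again none of their genes was 2-fold apart. Tfam had 16.7 FPKM in irradiated cKO and 24.9 FPKM in irradiated wild type, and Lrpprc 4.89 and 7.14 FPKM. In wild-type cells, irradiated against steady state, 3 of 12 transcription and maintenance genes, 10 of 19 processing and stability genes and 3 of 15 complex IV assembly genes were at least 2-fold higher, and none lower, where 18.9% of all genes kept were called in each direction. The share called higher was near that background for the transcription and complex IV assembly lists. Among these were Ssbp1, the mitochondrial single-strand DNA-binding protein (log2 difference 1.27), Fastkd2, an RNA-binding protein of mitochondrial RNA granules (1.54), and Higd1a, a protein associated with cytochrome c oxidase (1.67). In cKO cells the same comparison had 0 of 11, 2 of 17 and 1 of 14 genes at least 2-fold higher, and Mterf2 (log2 difference −1.22) and Mrm1, an rRNA methyltransferase (−1.20), were at least 2-fold lower. Over all genes kept, 10.3% were called higher and 22.6% lower in cKO cells, so calls in these lists were near or below the background.

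Genes whose profile over the 4 libraries was most like that of mt-Co1 were sought among 4661 genes with a mean of at least 10 FPKM, by the Euclidean distance between log2(FPKM + 1) values centred on their mean. The nearest was Gm29216, at a distance of 0.68. It was followed by Gm23130 at 1.02, Nudt3 and Rbbp4 at 1.14 each and Sqle at 1.22. All other members were farther from mt-Co1 than these, between 1.56 for mt-Cytb and 1.99 for mt-Atp6. The median profile of the other 9 members had many close genes, with Gstt2 at 0.05, C1galt1c1 and Vamp3 at 0.08 each and Gltp at 0.09. With 4 libraries, such distances describe these libraries alone.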

How the data were processed

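RNA was sequenced in 4 libraries, 1 per group. The deposited values are FPKM per gene, made by the authors, with 30409 identifiers in each file. Per the submitters' processing notes, MACS2 2.1.0, HOMER, BWA 0.7.12-r1039 and Bowtie were used in the series, with mm10 as the build; the sources used here do not tell which of them made the FPKM. The ATAC-seq samples (2) were left out. A symbol was found for 30231 identifiers.

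Library sizes behind the FPKM were recovered from the RefSeq lengths of 16 mitochondrial genes: all 64 values came out as whole reads within 0.004. Recovered reads gave Clopper-Pearson intervals for shares and exact conditional binomial intervals for ratios of FPKM. With PCR reads these cover counting error only. Differences are log2(FPKM + 1), which understates the change of low genes. Genes entered a comparison if the higher library reached 5 FPKM and were called at 2-fold. With 1 library per group no p-value is given. The interval and recovery steps were tested on simulated data.

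The members and gene lists were chosen with earlier results of these data known, and so was mt-Co1 as the gene set against the other members. The text names all 10 members, the other mitochondrial genes, the listed Gm genes, a fixed set of regulators and, of each other list, genes among the 4 with the largest differences in a comparison; genes nearest to a profile are the 5 nearest, of which 1 is not named here. Alternatives were a pseudocount of 0.1 or 5, a minimum of 1 FPKM, 20 FPKM or none, median-of-ratios and upper-quartile scaling, rescaling to a common sum without the 50 most abundant or without all mitochondrial genes, dividing by the 13 mitochondrial protein genes, and other denominators for mt-Co1. Adding Gm29216 reads to mt-Co1 was chosen after seeing the data. Python 3.11.15, numpy 2.4.6, pandas 2.3.3 and scipy 1.17.1 were used.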

Additional observations from a re-analysis of the deposited data

Results flagged for a closer look

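mt-Co1 differed in sign between the genotypes: irradiated against steady state, its log2 difference was −0.90 in cKO and 1.20 in wild type, and the value in cKO minus that in wild type was −2.09. With 1 library in each group this difference was not tested. Under upper-quartile scaling the cKO value was 0.12 and the difference between the genotypes −1.68.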

How the results depend on the processing

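No paired analysis was possible because each group held 1 library, and for the same reason no replicate could be left out. No result in a comparison turned its sign among those with a call. The mt-Co1 excess over the median of the other 9 members moved only with a pseudocount of 5, to 1.75 in irradiated against steady-state wild type, where it was 1.80. A scaling between libraries shifts mt-Co1 and the other members nearly alike, so it could hardly move this excess. The ratio of mt-Co1 to other members takes other values by construction with other denominators: over the sum of the 9 it was 0.235, 0.187, 0.317 and 0.0710 in irradiated cKO, irradiated wild type, steady-state cKO and steady-state wild type, and over the mean of mt-Co2 and mt-Co3 16.6, 11.8, 17.3 and 3.66. Steady-state wild type was lowest with either, which follows from its being lowest over each of the 9 genes singly.

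Counts of genes 2-fold apart over all genes, the background of the members' calls, moved most, and the cause was not tested. For cKO against wild type at steady state (46 higher, 193 lower) there were 80 higher with the 50 most abundant genes left out, 97 higher and 123 lower with mitochondrial genes left out, 25 higher at a minimum of 20 FPKM, and 126 higher at 1 FPKM and with no minimum. For cKO against wild type after irradiation (284 higher, 66 lower) there were 102 lower at a pseudocount of 0.1, 176 higher and 38 lower at a pseudocount of 5, 733 and 30 with the upper quartile, 467 and 29 without the 50 most abundant genes, 812 and 125 at 1 FPKM and with no minimum, and 134 and 42 at 20 FPKM.

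For irradiated against steady-state wild type (1400 higher, 1401 lower) there were 3027 higher and 808 lower with the upper quartile, 677 higher without the 50 most abundant genes, 2424 lower at 1 FPKM and with no minimum, and 536 lower at 20 FPKM. For irradiated against steady-state cKO (762 higher, 1673 lower) there were 1205 higher with the median of ratios, 960 lower at a pseudocount of 5, 3404 higher and 649 lower with the upper quartile, 1807 and 2680 at 1 FPKM and with no minimum, and 457 and 612 at 20 FPKM. For the difference of the irradiation differences (488 higher, 132 lower) there were 252 lower at a pseudocount of 0.1 and 60 at 5, 799 higher and 59 lower with the upper quartile, 272 lower without mitochondrial genes, 1068 and 269 at 1 FPKM, 257 and 76 at 20 FPKM, and 1107 and 293 with no minimum. The share of calls that were higher was 19.2%, 81.1%, 49.98%, 31.3% and 78.7% in these 5 comparisons, and 25.2%, 96.1%, 78.9%, 84.0% and 93.1% with the upper quartile. On dividing by the 13 mitochondrial protein genes, mt-Co1 included, it was 5.85%, 83.5%, 52.4%, 68.8% and 93.5%.

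Among single genes and lists, 186 values moved and 169 stayed. The members rest on 155 reads or more each, and small differences of some of them lie within counting error; it is widest for mt-Nd4l, mt-Nd3, mt-Atp8, mt-Tp and Twist1. The missing replicates limit every comparison.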
